A study of Mus musculus with 15 samples.

Results

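Nrp1, Apobec1, Wwp1, Paox, Hacd4, Arhgap19 and Akap10 were 7 protein-coding genes whose transcripts were higher in lipid-laden monocyte-derived macrophages (MDM) of mouse gliomas than in non-lipid-laden MDM and than in lipid-laden microglia. They were chosen for exactly these 2 differences, so both differences are given here as a description and not as a test. They were 7 of the 55486 genes in the deposited table, and all 7 were among the 14843 genes that passed a filter on low counts. The choice looked for genes above both groups, and the levels in non-laden microglia were not part of it.

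The 15 bulk RNA-seq libraries came from macrophages sorted out of brain tumours of mice with the genotype Ink4a/ArfKO, PDGFB, in which the growth factor is expressed in Nestin-positive progenitor cells and the tumour suppressor locus is deleted. There were 3 libraries of lipid-laden MDM, 4 of non-lipid-laden MDM, 4 of lipid-laden microglia and 4 of non-lipid-laden microglia; non-lipid-laden is shortened to non-laden from here on. Tumour model, genotype and sorting were shared by all 4 groups, and neither age nor the lipid stain nor the gates are given in the labels. Each title carries the number 221, 224, 431 or 718, and no lipid-laden MDM library numbered 431 was among those analysed. Total counts were 7798952 to 11419338 per library, and the 7 genes had between 127 and 5613 counts in any library.

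The genes have unrelated roles. Neuropilin-1, the product of Nrp1, is a surface co-receptor for class 3 semaphorins and for vascular endothelial growth factor (VEGF), and on tumour macrophages it takes part in their movement into hypoxic regions. Arhgap19 encodes a GTPase-activating protein, and Akap10 an anchoring protein that holds protein kinase A at membranes. Hacd4 encodes a dehydratase of the cycle that lengthens fatty acids to very long chains, Paox a peroxisomal oxidase that breaks down acetylated polyamines, Apobec1 a cytidine deaminase that edits messenger RNA, and Wwp1 a ubiquitin ligase of the NEDD4 family. Macrophages that take up myelin or dead cells store the lipid in droplets, and MDM and microglia differ in origin, the first entering from blood and the second residing in the brain.

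The sorted groups were checked against marker genes. The 12 microglial markers, all tested, summed to 8142 to 12190 CPM (counts scaled to a common library size) in lipid-laden MDM, 2770 to 4588 CPM in non-laden MDM, 7920 to 20900 CPM in lipid-laden microglia and 12160 to 19340 CPM in non-laden microglia. Lipid-laden MDM therefore held more microglial transcript than non-laden MDM, and 11 of the 12 markers were called higher in them. The 12 MDM markers, all tested, summed to 6721 to 7783 CPM in lipid-laden MDM, 8991 to 9679 CPM in non-laden MDM, 2908 to 4516 CPM in lipid-laden microglia and 1938 to 3119 CPM in non-laden microglia. In bulk libraries fewer cells of a type and less RNA per cell cannot be told apart.

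**Figure D1:**
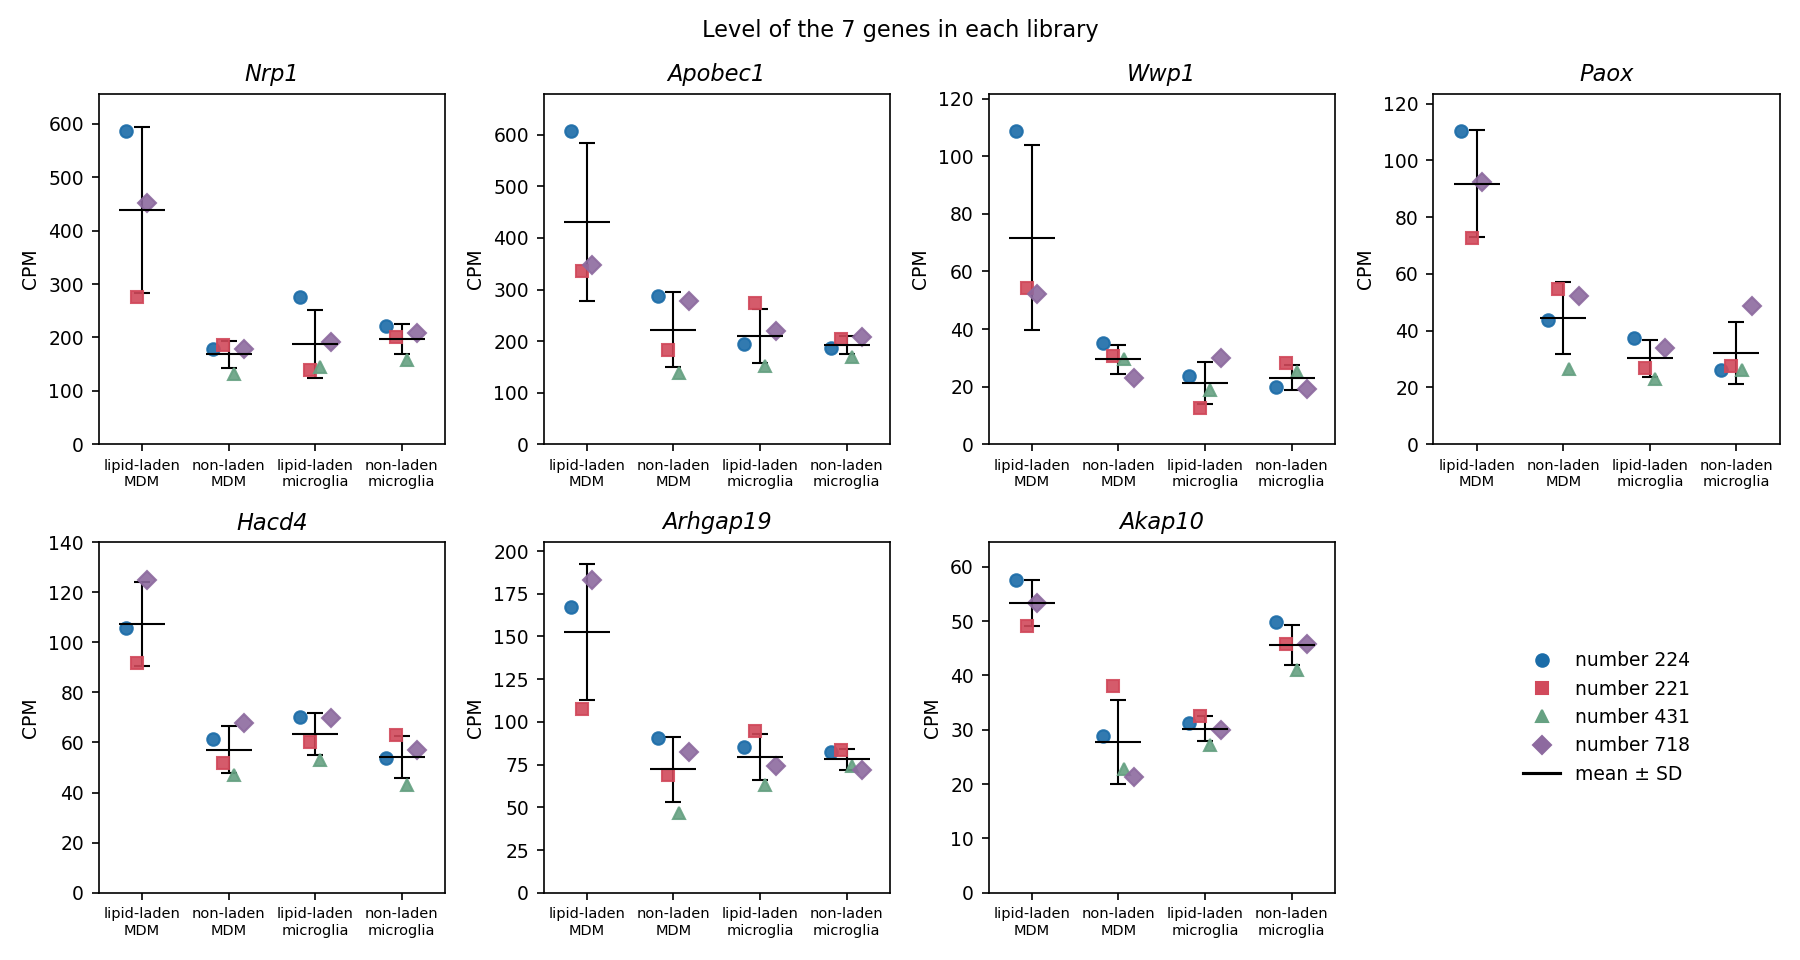
Level of each of the 7 genes in CPM (y axis, linear from 0) in the 4 sorted groups (x axis), with 1 point per library, coloured by the number in its title, and black bars for the mean ± SD. The lipid-laden MDM libraries lie above all 12 others for 6 genes, while for Akap10 non-laden microglia reach the same range.

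The genes were chosen for being high in lipid-laden MDM, which does not show that they are regulated together. Promoter sequence is given as a description. RefSeq promoter windows of build GRCm38.p6 were found for 6 of the 7 genes by symbol, and the 250 bases before each start were searched on both strands for 10 short motifs. No motif occurred in more than 3 of the 6 genes. The nuclear receptor half-site AGGTCA was in the windows of Nrp1, Hacd4 and Akap10 and in 14.0% of all 32817 windows. The GC box GGGCGG was in those of Nrp1, Paox and Hacd4 and in 32.7% of all windows. The PU.1 and ETS core GAGGAA was in those of Nrp1 and Paox (23.3% of all windows), the hypoxia response core ACGTG in those of Paox and Akap10 (16.6%) and TGTGGT of RUNX factors in those of Apobec1 and Paox (14.0%). TTGCNNAA of C/EBP factors and the E-box CACGTG were in that of Akap10 alone (9.57% and 6.02%), and CCAAT of NF-Y was in that of Arhgap19 (33.8%). The AP-1 motif TGANTCA (6.75%) and the interferon regulatory factor motif (2.97%) were in none of these windows. Paox had 2 annotated RefSeq starts, and both windows were searched. RefSeq starts were not always the gene starts of the deposited table. The Nrp1 window lay inside the gene as given there, after its start at 128358604. Both Paox windows, from 140125407 and from 140125435, also lay inside the gene, after its start at 140115799. The 3 windows with AGGTCA and the window of Arhgap19, with CCAAT at 3 positions, are shown 5′ to 3′ along the strand of the gene, with all motif matches in capitals. In Akap10, AGGTCA overlaps CACGTG, which itself holds ACGTG.
Nrp1, chr8:128358823-128359072, plus strand: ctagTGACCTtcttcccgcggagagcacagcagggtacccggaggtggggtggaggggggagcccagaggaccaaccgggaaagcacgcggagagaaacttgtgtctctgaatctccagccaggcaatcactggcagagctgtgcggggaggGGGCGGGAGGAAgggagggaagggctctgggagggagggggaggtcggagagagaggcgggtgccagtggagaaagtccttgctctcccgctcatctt
Hacd4, chr4:88438916-88439165, minus strand: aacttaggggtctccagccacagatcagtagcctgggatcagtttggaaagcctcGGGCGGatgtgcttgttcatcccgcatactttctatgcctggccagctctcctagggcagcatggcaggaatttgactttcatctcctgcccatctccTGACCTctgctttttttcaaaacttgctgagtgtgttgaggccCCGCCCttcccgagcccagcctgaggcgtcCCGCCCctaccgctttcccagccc
Akap10, chr11:61930258-61930507, minus strand: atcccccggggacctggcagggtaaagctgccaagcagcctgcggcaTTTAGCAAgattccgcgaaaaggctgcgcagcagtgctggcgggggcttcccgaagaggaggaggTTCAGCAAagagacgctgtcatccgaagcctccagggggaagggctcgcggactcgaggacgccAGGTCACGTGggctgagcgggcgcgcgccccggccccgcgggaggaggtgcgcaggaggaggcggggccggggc
Arhgap19, chr19:41802085-41802334, minus strand: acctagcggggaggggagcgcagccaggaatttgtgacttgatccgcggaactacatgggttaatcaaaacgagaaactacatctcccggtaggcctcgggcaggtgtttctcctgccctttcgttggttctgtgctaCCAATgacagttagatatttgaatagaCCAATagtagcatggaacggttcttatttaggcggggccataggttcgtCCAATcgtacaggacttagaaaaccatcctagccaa
In these windows the AGGTCA half-site began 246 bases before the RefSeq start in Nrp1, 97 bases before it in Hacd4 and 74 bases before it in Akap10. GC content was 64.4% in Nrp1, 57.2% in Hacd4, 70.0% in Akap10 and 49.2% in Arhgap19, against a median of 52.4% over all windows.

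Across the 14843 genes tested, 8 (0.0539%) were called higher in lipid-laden MDM than in both non-laden MDM and lipid-laden microglia, by edgeR's quasi-likelihood test at an adjusted p under 0.05 in each. The 7 genes described here were among them, and the other was Psap, which encodes prosaposin, the precursor of the saposins that help lysosomal enzymes to degrade sphingolipids. Psap had 1046, 1852 and 2156 CPM in lipid-laden MDM of numbers 221, 224 and 718, against 742 to 1036 CPM in non-laden MDM and 804 to 1033 CPM in lipid-laden microglia. Its log2 fold changes were 0.87 over non-laden MDM and 0.81 over lipid-laden microglia. Unlike 6 of the 7 genes, its lowest lipid-laden MDM library did not exceed all others, since non-laden microglia reached 1224 CPM.

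Ranked by the larger of both edgeR adjusted p, the genes just inside the double call were Psap (0.0427), Akap10 (0.0457) and Apobec1 (0.0473), and those just outside it were Lyz2 (0.0539), Gstm1 (0.0545) and Mpp1 (0.0588). Mpp1, which encodes a membrane scaffold protein, had log2 fold changes of 1.04 and 0.81. For Lyz2, Gstm1 and Mpp1 alike, every lipid-laden MDM library was above every other library. As a wider background, 117 genes (0.788%) were higher in both contrasts at an unadjusted p under 0.05, and 78 genes (0.526%) had all 3 lipid-laden MDM libraries above all 12 others. Both the double call and this separation held for 6 genes (0.0404%), all of them among the 7. The 7 genes were chosen on the contrasts of the double call, so these ranks and counts describe them and test nothing about them. Of all genes, 1213 (8.17%) were called between lipid-laden and non-laden MDM, 5.21% higher and 2.96% lower. Between lipid-laden MDM and lipid-laden microglia 413 (2.78%) were called, 2.2% higher and 0.579% lower. Between lipid-laden MDM and non-laden microglia 470 (3.17%) were called, 2.6% higher and 0.566% lower. In this contrast the log2 fold changes were 0.23 for Akap10 and 0.97 to 1.64 for the other 6 of the 7 genes. It shares the lipid-laden MDM libraries that the choice required to be high, so no test of the 7 genes is drawn from it.

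**Figure D2:**
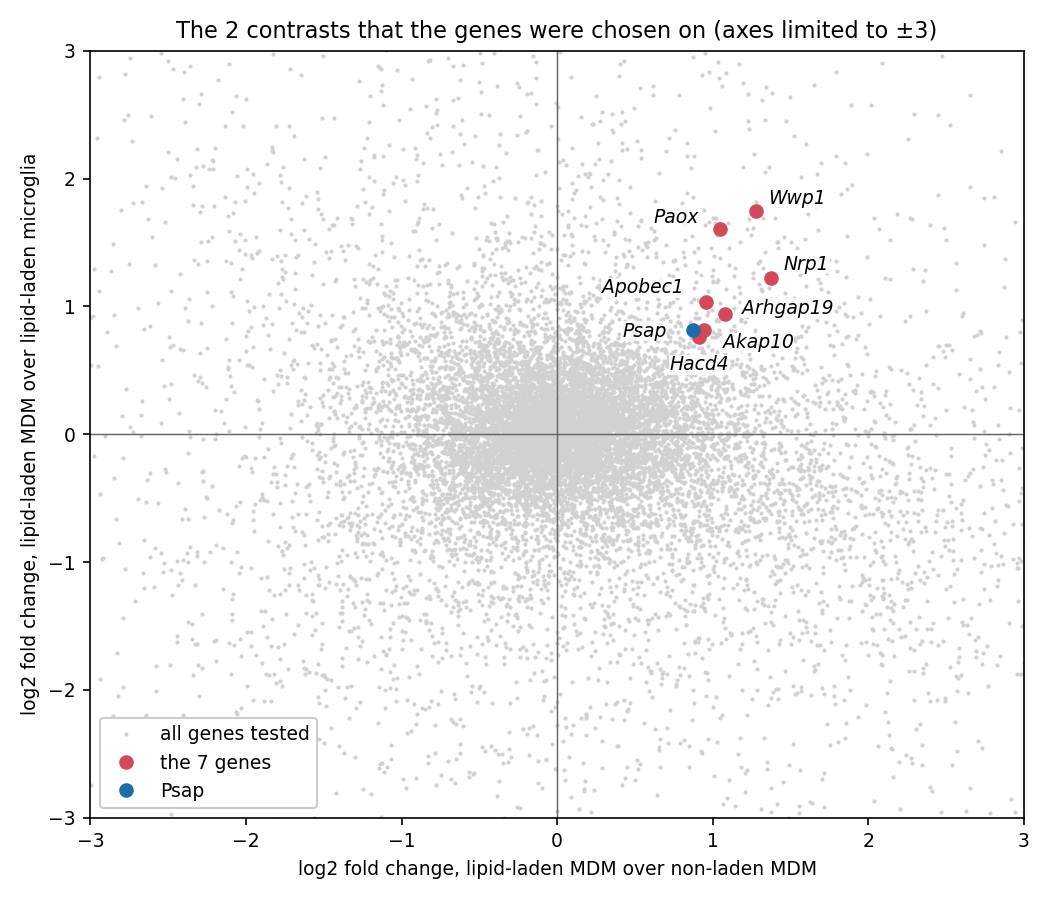
Log2 fold change of lipid-laden MDM over non-laden MDM (x axis) and over lipid-laden microglia (y axis) for the genes tested, with the 7 genes in red and Psap in blue; both axes stop at 3 log2 units. The marked genes lie in the upper right, with log2 fold changes of 0.87 to 1.38 on the x axis and 0.76 to 1.75 on the y axis, and were selected by these values.

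Levels per library follow in the order of the numbers 221, 224, 431 and 718, with no 431 for lipid-laden MDM. Coordinates are those of the deposited table in build mm10, and strand and exon length are from GENCODE M21, where all 7 genes had the same start and end.

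Nrp1 (ENSMUSG00000025810, chromosome 8, 128358604 to 128503363, plus strand) showed the largest excess over non-laden MDM among the 7. It had 276, 586 and 451 CPM in lipid-laden MDM, against 186, 179, 131 and 179 CPM in non-laden MDM. In lipid-laden microglia it had 139.8, 276, 144 and 191 CPM, and in non-laden microglia 199.9, 222, 157 and 208 CPM. Library 221 of lipid-laden MDM was only level with library 224 of lipid-laden microglia, at 276 CPM each, while libraries 224 and 718 stood clear of every other library. Group means were 438 ± 155 CPM (SD, n = 3) in lipid-laden MDM, 169 ± 25.3 CPM in non-laden MDM, 188 ± 63.5 CPM in lipid-laden microglia and 197 ± 28.0 CPM in non-laden microglia (SD, n = 4 each). The log2 fold change was 1.38 (standard error, SE, 0.26) over non-laden MDM and 1.22 (SE 0.26) over lipid-laden microglia.

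Endothelial cells also make neuropilin-1, and their 10 markers were examined beside it. The 9 that could be tested summed to 47.4 to 160 CPM in lipid-laden MDM, 49.2 to 208 CPM in non-laden MDM, 28.4 to 376 CPM in lipid-laden microglia and 35.3 to 173 CPM in non-laden microglia. These ranges overlapped, and 0 of the 9 were called between lipid-laden MDM and any other group. In lipid-laden MDM Pecam1 had 124 to 669 counts, Flt1 78 to 486 and Kdr 31 to 151, while Tek, Tie1 and Vwf were at 0 in at least 1 library. The 6 tested of 8 markers of plasmacytoid dendritic cells, which carry neuropilin-1 in humans, summed to 373 to 433 CPM in lipid-laden MDM, 209 to 374 CPM in non-laden MDM, 399 to 1063 CPM in lipid-laden microglia and 554 to 1237 CPM in non-laden microglia. Of these 6, 0 were called between lipid-laden MDM and any other group. Siglech, which microglia also express, had 1707 to 2653 counts in lipid-laden MDM and 221 to 1096 in non-laden MDM, Cox6a2 had 91 to 137 and 22 to 85, and Tcf4 1408 to 1956 and 1382 to 2448. Ccr9 had 3 to 38 counts in lipid-laden MDM and 113 to 298 in non-laden MDM, and Klk1 was at 0 in lipid-laden MDM. The part of either cell type in the level of Nrp1 was not tested.

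Arhgap19 (ENSMUSG00000025154, chromosome 19, 41766588 to 41802047, minus strand) had 108, 167 and 183 CPM in lipid-laden MDM, against 69.0, 90.7, 46.8 and 82.3 CPM in non-laden MDM. The microglial libraries had 94.4, 85.2, 63.3 and 74.4 CPM with lipid load and 83.8, 82.6, 74.0 and 71.7 CPM without it. All 3 lipid-laden MDM libraries were the highest, and the other groups overlapped. Means were 153 ± 39.9 CPM (SD, n = 3) in lipid-laden MDM, and 72.2 ± 19.1, 79.3 ± 13.4 and 78.0 ± 6.07 CPM in non-laden MDM, lipid-laden microglia and non-laden microglia (SD, n = 4 each). The log2 fold change was 1.08 (SE 0.23) over non-laden MDM and 0.94 (SE 0.23) over lipid-laden microglia.

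Akap10 (ENSMUSG00000047804, chromosome 11, 61871307 to 61930252, minus strand) differed from the other 6 in non-laden microglia. It had 49.0, 57.7 and 53.4 CPM in lipid-laden MDM and 38.1, 28.8, 22.8 and 21.3 CPM in non-laden MDM. Lipid-laden microglia had 32.5, 31.2, 27.2 and 30.0 CPM, and non-laden microglia 45.9, 49.8, 40.9 and 45.8 CPM. The lipid-laden MDM libraries lay above all libraries of non-laden MDM and lipid-laden microglia, but library 224 of non-laden microglia exceeded the lowest of them. Across numbers the lipid-laden MDM libraries were thus not all the highest for Akap10, although within each of the numbers 221, 224 and 718 lipid-laden MDM was the highest group. Its log2 fold change was 0.94 (SE 0.21) over non-laden MDM and 0.82 (SE 0.21) over lipid-laden microglia, but 0.23 (SE 0.21) over non-laden microglia, at 53.4 ± 4.32 CPM (SD, n = 3) against 45.6 ± 3.63 CPM (SD, n = 4).

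Hacd4 (ENSMUSG00000028497, chromosome 4, 88396144 to 88438928, minus strand) had 91.5, 106 and 125.0 CPM in lipid-laden MDM, against 51.9, 61.3, 47.0 and 67.9 CPM in non-laden MDM. Lipid-laden microglia had 60.4, 70.3, 53.0 and 69.9 CPM, and non-laden microglia 62.9, 53.8, 43.0 and 57.0 CPM. The 3 lipid-laden MDM libraries were the highest of all, and the lowest of them was 1.30 times the next library. Means were 107 ± 16.8 CPM (SD, n = 3) in lipid-laden MDM, and 57.0 ± 9.37, 63.4 ± 8.29 and 54.2 ± 8.36 CPM in non-laden MDM, lipid-laden microglia and non-laden microglia (SD, n = 4 each). Its log2 fold changes were the smallest of the 7 genes in both contrasts, 0.91 (SE 0.19) over non-laden MDM and 0.76 (SE 0.19) over lipid-laden microglia. Of its annotated exon bases, 11.0% are shared with Focad on the other strand, and strand was not given for the counts; Focad itself had at most 83 counts in a library and a log2 fold change of -0.87 between lipid-laden and non-laden MDM.

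Paox (ENSMUSG00000025464, chromosome 7, 140115799 to 140137224, plus strand) had 72.6, 110.3 and 92.4 CPM in lipid-laden MDM, against 54.6, 43.7, 26.7 and 52.4 CPM in non-laden MDM. In microglia it had 26.9, 37.4, 22.9 and 33.8 CPM with lipid load and 27.6, 26.2, 26.2 and 48.6 CPM without it. No other library reached the lowest lipid-laden MDM library, which was 1.33 times the next one. Means were 91.8 ± 18.9 CPM (SD, n = 3) in lipid-laden MDM, and 44.3 ± 12.7, 30.2 ± 6.57 and 32.1 ± 11.0 CPM in non-laden MDM, lipid-laden microglia and non-laden microglia (SD, n = 4 each). The log2 fold change was 1.05 (SE 0.29) over non-laden MDM and 1.60 (SE 0.29) over lipid-laden microglia. Echs1 on the other strand shares 2.89% of the exon bases of Paox, and its log2 fold changes in the same contrasts were 0.53 and 0.08.

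Apobec1 (ENSMUSG00000040613, chromosome 6, 122577792 to 122602444, minus strand) had 335, 607 and 348 CPM in lipid-laden MDM, against 183, 287, 139 and 278 CPM in non-laden MDM. Lipid-laden microglia had 275, 194, 151 and 219 CPM, and non-laden microglia 205, 186, 170.0 and 209 CPM. Library 224 of lipid-laden MDM stood far above the other 2 libraries of its group, which were closer to non-laden MDM. The group means were 430.3 ± 153 CPM (SD, n = 3) in lipid-laden MDM, 222 ± 72.5 CPM in non-laden MDM, 209.7 ± 51.6 CPM in lipid-laden microglia and 193 ± 17.9 CPM in non-laden microglia (SD, n = 4 each). The log2 fold change was 0.96 (SE 0.26) over non-laden MDM and 1.04 (SE 0.26) over lipid-laden microglia. Per kilobase of exon it was the most abundant of the 7 genes, at 159 CPM per kilobase in lipid-laden MDM, followed by Nrp1 at 44.8 CPM per kilobase, and Akap10 was the least abundant at 8.27 CPM per kilobase.

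Wwp1 (ENSMUSG00000041058, chromosome 4, 19608303 to 19708993, minus strand) had 54.2, 109 and 52.2 CPM in lipid-laden MDM, against 30.7, 35.0, 29.7 and 22.9 CPM in non-laden MDM. In lipid-laden microglia it had 12.8, 23.8, 18.8 and 29.8 CPM, and in non-laden microglia 28.2, 19.9, 25.02 and 19.1 CPM. Its lowest lipid-laden MDM library was 1.49 times the next library, the widest gap among the 7 genes, and its highest was again number 224. On average it had 71.7 ± 32.1 CPM (SD, n = 3) in lipid-laden MDM, 29.6 ± 5.02 CPM in non-laden MDM, 21.3 ± 7.25 CPM in lipid-laden microglia and 23.05 ± 4.33 CPM in non-laden microglia (SD, n = 4 each). The log2 fold change was 1.28 (SE 0.31) over non-laden MDM and 1.75 (SE 0.31) over lipid-laden microglia.

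Within lipid-laden MDM the libraries kept an order over these genes. Library 224 was the highest for 5 of the 7 genes and library 718 for 2, while library 221 was the lowest for 6 of them and library 718 for Wwp1. Set against the higher of the means of non-laden MDM and lipid-laden microglia, library 224 was at 1.67 to 3.68 times that mean over the 7 genes, library 718 at 1.57 to 2.41 times and library 221 at 1.36 to 1.83 times. In each of the other 3 groups, library 431 was the lowest for 5 of the 7 genes. Lipid-laden MDM had no library of that number. Without the 3 libraries numbered 431 the log2 fold changes over non-laden MDM were 0.79 to 1.28 and those over lipid-laden microglia 0.69 to 1.70, all positive, but 0 of the 7 genes passed edgeR in both contrasts, where 1 gene of all, Lyz2, did. Without library 224 of lipid-laden MDM 0 genes of all passed in both, and the log2 fold change over non-laden MDM was 0.63 for Apobec1 and 0.85 for Wwp1. Without library 718 of lipid-laden MDM 3 genes passed in both, 1 of them among the 7.

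The contrasts without lipid-laden MDM are also given as a description of the 7 genes. Each has as its first group 1 of the groups that the choice required to be low, so no test of the 7 genes is drawn from them. Between non-laden MDM and non-laden microglia, edgeR called 3442 of 14843 genes (23.2%), 10.7% higher and 12.5% lower. Akap10 had the log2 fold change farthest from 0 among the 7, at -0.72 (SE 0.20), with 27.8 ± 7.65 CPM in non-laden MDM against 45.6 ± 3.63 CPM in non-laden microglia (SD, n = 4 each). Its libraries ranged from 21.3 to 38.1 CPM in non-laden MDM and from 40.9 to 49.8 CPM in non-laden microglia. Without the libraries of number 431 its log2 fold change was -0.67. The other 6 had log2 fold changes of -0.22 for Nrp1 to 0.47 for Paox, and SE of 0.17 to 0.29.

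Between lipid-laden and non-laden microglia, edgeR called 0 of 14843 genes (0%), with 1367 at an unadjusted p under 0.05. DESeq2 called 180, and edgeR with the number as a replicate block called 119. Akap10 was at 30.2 ± 2.28 CPM with lipid load and 45.6 ± 3.63 CPM without it (SD, n = 4 each). Its log2 fold change was -0.59 (SE 0.19). The libraries ranged from 27.2 to 32.5 CPM with lipid load and from 40.9 to 49.8 CPM without it. The other 6 had log2 fold changes from -0.11 for Wwp1 to 0.23 for Hacd4, with SE of 0.17 to 0.29.

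**Figure D3:**
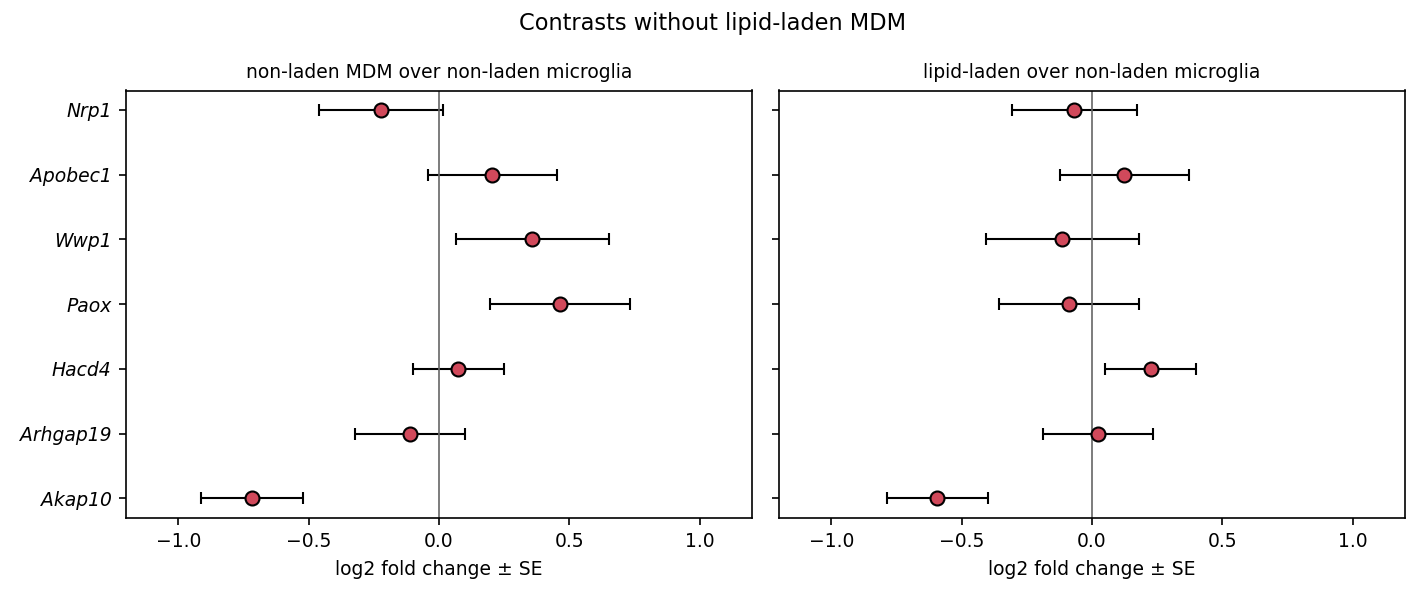
Log2 fold change ± SE (x axis) of the 7 genes (top to bottom) for non-laden MDM over non-laden microglia (left) and for lipid-laden over non-laden microglia (right). Akap10 is the farthest from 0 on both sides, at -0.72 on the left and -0.59 on the right.

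Among the 12 libraries outside lipid-laden MDM, 14 of the 21 pairs of these genes had a positive Pearson r of log2 CPM (median 0.31, from -0.25 to 0.80). These libraries share groups and numbers, so the correlations are a description. Likeness over all 15 libraries includes the lipid-laden MDM libraries that the choice required to be high. Other genes high in those libraries are thereby favoured, so the most similar genes are a description and not a test. Over all 15 libraries the mean standardized profile of the 7 genes was most like that of Mpp1 (r = 0.86), Psap (0.85), the sphingosine-1-phosphate lyase gene Sgpl1 (0.83), Rap2b (0.83) and Pmm2 (0.83), out of 9117 candidate genes. Socs6, Apoe, Siglec1, App and Eepd1 followed with r of 0.81 to 0.82. Apoe, the lipid carrier of the brain, averaged 16890 CPM in lipid-laden MDM, 12420 CPM in non-laden MDM, 11500 CPM in lipid-laden microglia and 11480 CPM in non-laden microglia.

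By single gene, the same limit holds, since the lipid-laden MDM libraries are again included. Nrp1 was most like Psap (r = 0.89) and Adipor1 (0.88), and Arhgap19 most like Psap (0.85) and Rab5c (0.85). Apobec1 was most like Mpp1 (0.86) and Sdcbp (0.85), Hacd4 most like Mpp1 (0.89) and Lipa, the lysosomal acid lipase gene (0.86). Paox was most like Siglec1, a sialic acid receptor of macrophages (0.91), and Sptlc2, a subunit of the first enzyme of sphingolipid synthesis (0.88), and Wwp1 most like Dhrs1 (0.82) and Faim (0.79). Akap10 had other neighbours, P2ry6, a nucleotide receptor (0.87), and Entpd1, an ectonucleotidase (0.86). P2ry6 averaged 381 CPM in lipid-laden MDM, 199.8 CPM in non-laden MDM, 273 CPM in lipid-laden microglia and 371 CPM in non-laden microglia, the same order of group means as for Akap10.

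Of the tested relatives of the 7 genes in 6 lists, 0 were called higher in both contrasts of the choice. The lists are given by counts and by their median log2 fold change between lipid-laden and non-laden MDM, which was 0.04 over all genes tested. Of the 20 other tested genes of neuropilins, plexins, semaphorins and VEGF (median 0.55), 2 were called higher in lipid-laden than in non-laden MDM and 1, Plxnd1, higher in lipid-laden MDM than in lipid-laden microglia. Nrp2, the second neuropilin, averaged 56.9 ± 16.0 CPM in lipid-laden MDM (SD, n = 3) against 20.7 ± 4.01 CPM in non-laden MDM (SD, n = 4), with a log2 fold change of 1.46, an SE of 0.28 and an edgeR adjusted p of 0.00465. In non-laden microglia it was higher still, at 79.6 ± 17.8 CPM (SD, n = 4). The other was Plxna4, at 10.9 ± 2.98 CPM in lipid-laden MDM (SD, n = 3) against 1.85 ± 1.73 CPM in non-laden MDM (SD, n = 4; edgeR adjusted p = 0.0239). Between non-laden MDM and non-laden microglia, 4 of the 20 were called higher and 5 lower. Nrp2 (-1.95) and the semaphorin 4 receptor gene Plxnb2 (-1.29) were lower and Plxnd1 (2.04) was higher, with edgeR adjusted p of 9.29e-05, 0.000659 and 0.000108.

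Of 18 other polyamine genes (median 0.10), 2 were called higher in lipid-laden than in non-laden MDM, the acetyltransferase relative Sat2 (log2 fold change 2.68) and the lysosomal polyamine exporter Atp13a2 (0.98), and 1, the spermine oxidase gene Smox, was called lower in lipid-laden MDM than in lipid-laden microglia (-1.12). Smox averaged 137 ± 22.3 CPM in lipid-laden MDM and 299 ± 71.3 CPM in lipid-laden microglia (SD, n = 3 and 4). Between non-laden MDM and microglia 2 of the 18 were called higher and 3 lower, and the 3 with the smallest p were Sat2 (-2.43), Smox (-0.88) and Oaz1 (0.39). Of 10 other genes of fatty acid elongation (median 0.34), 0 were called higher and 1 lower in lipid-laden than in non-laden MDM. That gene was Elovl5, an elongase of polyunsaturated fatty acids, at 72.3 ± 13.8 CPM in lipid-laden MDM (SD, n = 3) against 168 ± 32.8 CPM in non-laden MDM (SD, n = 4; log2 fold change -1.21, edgeR adjusted p = 0.0200). Between non-laden MDM and microglia 1 of the 10 was called higher, Elovl5 (1.64), and 2 lower, Hacd3 (-0.57) and Elovl1 (-0.34).

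Of 17 other genes of A-kinase anchoring proteins and protein kinase A (median 0.21), 0 were higher and 1 lower in lipid-laden than in non-laden MDM. It was Prkar2a, a regulatory subunit of the kinase, at 42.7 ± 4.50 CPM in lipid-laden MDM (SD, n = 3) against 90.6 ± 19.6 CPM in non-laden MDM (SD, n = 4; log2 fold change -1.09, edgeR adjusted p = 0.0204). Between non-laden MDM and microglia 1 of the 17 was called higher, Prkar2a (1.17), and 2 lower, Akap12 (-2.14) and Akap6, which averaged 0.0292 CPM in non-laden MDM and 1.67 CPM in non-laden microglia. Of 9 other NEDD4 family genes and adaptors (median -0.02), 0 were called in either contrast of the choice, while Nedd4l (1.19) and Itch (0.97) were called higher in non-laden MDM than in microglia. Of the 4 other deaminase and cofactor genes tested (median 0.04), 0 were called in the contrasts of lipid-laden MDM, and Apobec2, with 0 counts in non-laden MDM, was called lower there than in microglia. In lipid-laden against non-laden microglia, 0 genes of these 6 lists were called.

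Markers of other cells moved with the groups. The 10 conventional dendritic cell markers, all tested, summed to 187 to 248 CPM in lipid-laden MDM, 1232 to 2758 CPM in non-laden MDM, 21.7 to 33.6 CPM in lipid-laden microglia and 33.1 to 58.6 CPM in non-laden microglia. Of these markers 6 were called lower in lipid-laden than in non-laden MDM and 7 higher in lipid-laden MDM than in lipid-laden microglia, while Clec9a, Cd209a and Dpp4 were at 0 counts in lipid-laden microglia. The 9 border macrophage markers, all tested, summed to 1509 to 2025 CPM in lipid-laden MDM, 954 to 1392 CPM in non-laden MDM, 476 to 849 CPM in lipid-laden microglia and 299 to 717 CPM in non-laden microglia. As with 6 of the 7 genes, all 3 lipid-laden MDM libraries were above the other 12. Library 224 was the highest and 221 the lowest of them, as for Nrp1, Apobec1, Paox and Akap10 but not for Wwp1, Hacd4 and Arhgap19. Cbr2, at 435 to 650 counts in lipid-laden MDM and 16 to 117 in non-laden MDM, and Stab1, at 3038 to 9116 and 1577 to 3232, were called higher in lipid-laden than in non-laden MDM, and Clec10a was called lower. Over lipid-laden microglia Pf4, Ms4a7 and F13a1 were called higher in lipid-laden MDM. Pf4 had 892 to 1328 counts in lipid-laden MDM and 348 to 636 in non-laden MDM, and Ms4a7 had 5682 to 6464 and 2432 to 6087. Lyve1 and Cd163 had 0 counts in at least 1 library of each group. The part of dendritic cells, border macrophages and microglia in the levels of the 7 genes was not tested.

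The 12 markers of lipid-associated macrophages, all tested, summed to 28460 to 36480 CPM in lipid-laden MDM, 18730 to 21320 CPM in non-laden MDM, 25390 to 30940 CPM in lipid-laden microglia and 19660 to 27850 CPM in non-laden microglia. The order of the lipid-laden MDM libraries was 224, 718 and 221 from highest to lowest, as for Nrp1, Apobec1, Paox and Akap10. Of these 12 markers, 8 were called higher in lipid-laden than in non-laden MDM, and 0 were higher and 1, Lpl, was lower in lipid-laden MDM than in lipid-laden microglia. Immediate early genes, which also respond to tissue dissociation, summed to 6886 to 11870 CPM in lipid-laden MDM, 10970 to 13250 CPM in non-laden MDM, 7057 to 9501 CPM in lipid-laden microglia and 10050 to 13990 CPM in non-laden microglia, over 12 genes of 12 tested. Within lipid-laden MDM they too were highest in library 224 and lowest in library 221, and their part in the result was not tested. Library 224 was also the highest for the 5 tested of 8 neutrophil markers, at 573 CPM against 152 and 212 CPM in libraries 221 and 718. Their sums were 99.5 to 155 CPM in non-laden MDM, 152 to 309 CPM in lipid-laden microglia and 229 to 327 CPM in non-laden microglia. Csf3r had 1246 to 2318 counts in lipid-laden MDM, 687 to 1374 in non-laden MDM and 1937 to 2974 in non-laden microglia. Cxcr2 had 2 to 168 counts in lipid-laden MDM and 35 to 345 in non-laden MDM. Retnlg and S100a9 were called higher in lipid-laden than in non-laden MDM. Retnlg had 40 to 2370 counts in lipid-laden MDM and 12 to 33 in non-laden MDM and was also called higher than in non-laden microglia, S100a9 had 12 to 223 counts and 0, and Ly6g and Camp were at 0 in all libraries.

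Markers of cycling cells and of glioma cells were also higher in lipid-laden than in non-laden MDM. The 10 cycling markers, all tested, summed to 503 to 1005 CPM in lipid-laden MDM, 125 to 295 CPM in non-laden MDM, 961 to 1427 CPM in lipid-laden microglia and 595 to 1110 CPM in non-laden microglia. All 10 were called higher in lipid-laden than in non-laden MDM, with a median log2 fold change of 1.88, and 0 were called between lipid-laden MDM and lipid-laden microglia. Library 224 was the lowest lipid-laden MDM library for this sum. The 10 glioma and progenitor markers, all tested, summed to 95.3 to 211 CPM in lipid-laden MDM, 21.7 to 37.4 CPM in non-laden MDM, 216 to 559.5 CPM in lipid-laden microglia and 171 to 494 CPM in non-laden microglia. Of these Olig1, Pdgfra, Cspg4, Ptprz1 and Ncan were called higher in lipid-laden than in non-laden MDM, with a list median of 2.72, and 0 were called higher and 2 lower in lipid-laden MDM than in lipid-laden microglia. The part of neutrophils, cycling cells and glioma cells in the levels of the 7 genes was not tested.

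**Figure D4:**
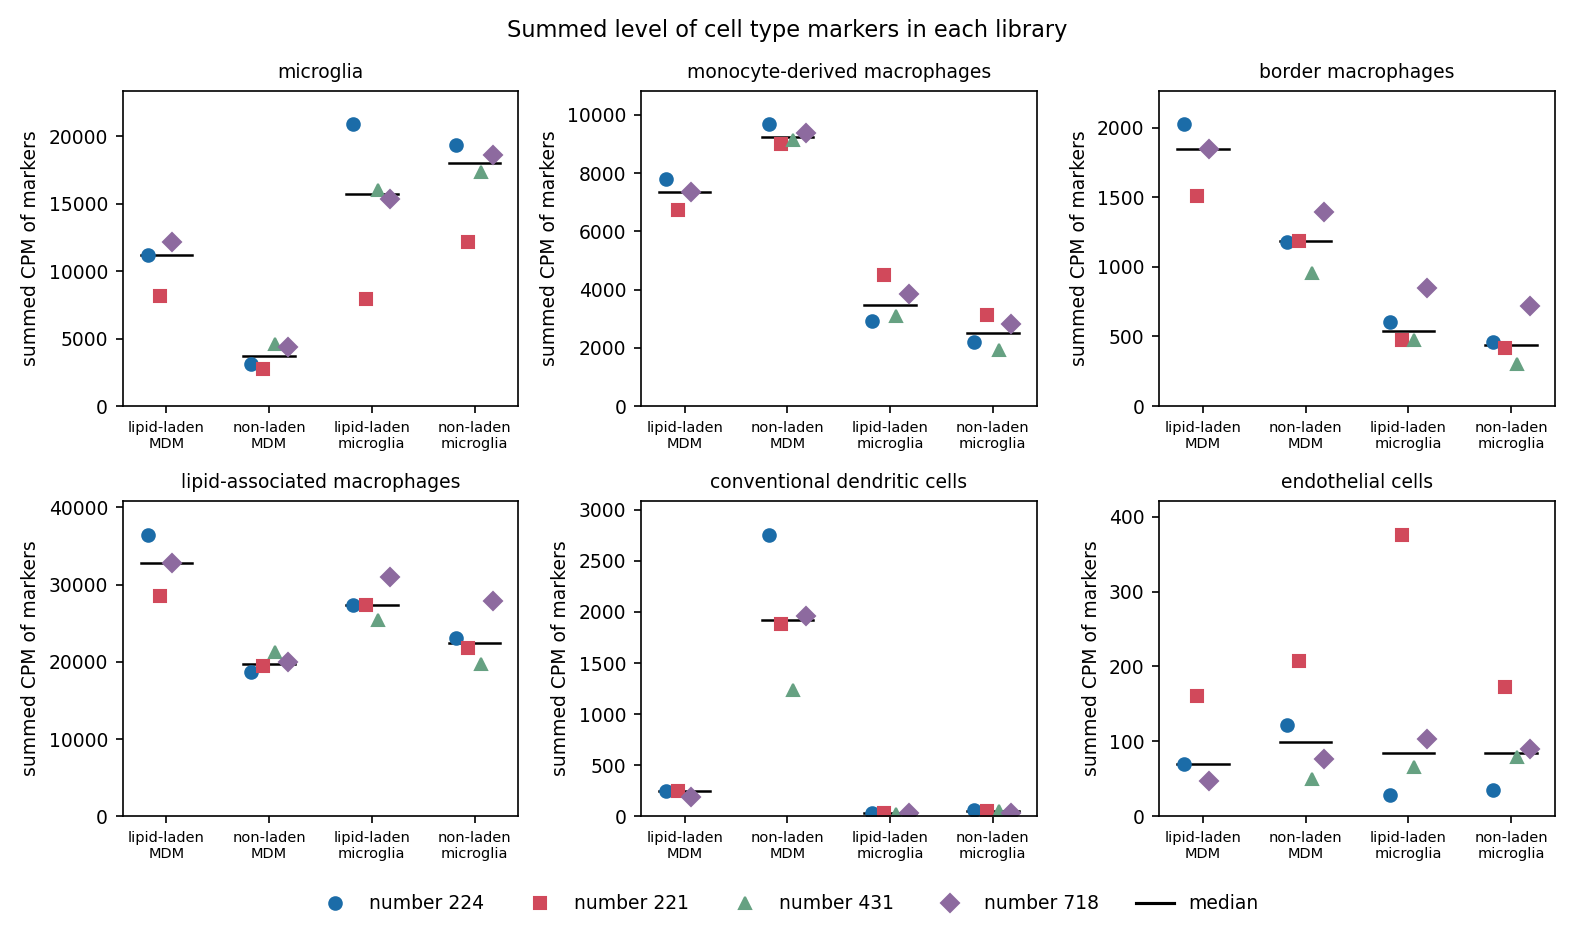
Summed CPM of 6 lists of cell type markers (y axis, linear from 0) in each library of the 4 sorted groups (x axis), coloured by number, with a black line at the median. Border macrophage markers are at 1509 to 2025 CPM in lipid-laden MDM, above all other libraries, and dendritic cell markers at 187 to 248 CPM there against 1232 to 2758 CPM in non-laden MDM.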

How the data were processed

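RNA of the sorted macrophages was turned into cDNA with oligo-dT primers and template switching, as the labels' protocols state. The authors deposited raw whole-number counts per gene; the submitters' processing notes name mm10. Which aligner, counting program and strand option were used is not given in the sources used here. The 1 entry without a gene, at 0 in every library, was left out. The main test was edgeR's quasi-likelihood test (edgeR 4.0.16, R 4.3.3) after TMM scaling, with filterByExpr (minimum count 10, minimum total 15), 1 coefficient per group over all 15 libraries, and Benjamini-Hochberg adjustment over 14843 genes; calls needed an adjusted p under 0.05. Levels are CPM on TMM-scaled library sizes. Each SE was obtained by dividing the log2 fold change by the root of its F statistic, which is approximate. Log2 CPM for correlations used a prior count of 2. Genes were named by rule: the 7 genes, the 3 on each side of the double call, the most similar profiles (average log2 CPM of at least 3, no predicted genes) and up to 3 called genes per list. Another list of related genes is not reported here. The genes and lists were chosen with earlier results of these data known. Nothing in the titles states that libraries are separate animals, so p-values measure the spread between libraries. Alternatives were DESeq2 1.42.0, other scalings, no filter, a replicate block and libraries left out. Deviations from group means correlated over 0.1 in every same-numbered pair for lipid-laden against non-laden microglia (r = 0.124 to 0.256) and for both lipid-laden groups (0.107 to 0.168). Pairs of different number there had r of at most 0.0941 and 0.0291. For lipid-laden MDM against non-laden microglia r was 0.0882 to 0.178 with the same number and at most 0.0458 otherwise. For non-laden MDM against lipid-laden MDM or non-laden microglia both kinds of pair overlapped (lowest same-numbered r 0.0152). The main fit did not use the numbers, and the replicate block did. The procedure was tested on simulated data.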

Additional observations from a re-analysis of the deposited data

Results flagged for a closer look

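Nrp1 in non-laden MDM had its lowest library, number 431, at 131 CPM, far from the other 3 at 179 to 186 CPM, and Paox in non-laden microglia had its highest, number 718, at 48.6 CPM, far from the other 3 at 26.2 to 27.6 CPM. Such gaps arise by chance in about 1 of 20 groups, and 21 groups of 4 libraries were examined.

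Akap10 moved in opposite directions with lipid load in every number-matched pair, higher in MDM (log2 fold change 0.94) and lower in microglia (-0.59). It also did so with origin, higher in MDM among lipid-laden cells (0.82) and lower in MDM among non-laden cells (-0.72). Nrp1 was higher in MDM among lipid-laden cells (1.22) and lower in MDM among non-laden cells (-0.22) in every pair. These differences between effects were not tested, since the genes were chosen on 1 of the effects in each.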

How the results depend on the processing

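In each of the 3 contrasts of lipid-laden MDM, 0 of 91 values of the 7 genes under the alternatives changed sign. The choice on the same libraries largely fixed these signs, so the count is a description and not a test. The 8 genes called in both contrasts of the choice became 24 with DESeq2, 18 with the replicate block and 5 with fits of only the groups compared. Of these, 7, 6 and 1 were among the 7 genes. With RLE scaling 6 genes were called in both and without a filter 8, with 5 of the 7 genes among them each time. Apobec1 and Akap10 dropped out with RLE scaling, and Hacd4 and Akap10 without a filter. The count was 0 to 13 with single libraries left out. It was 0 without library 224, 3 without 718 and 13 without 221 of lipid-laden MDM. It was 3 without 431 and 4 without 718 of lipid-laden microglia, and 5 without 224 of non-laden MDM or 718 of non-laden microglia. Genes called over all genes numbered 2106 with DESeq2 between lipid-laden and non-laden MDM (657 to 1052 with libraries left out), 888 with DESeq2 and 176 with only the groups compared between lipid-laden MDM and lipid-laden microglia (168 to 378), and 949 with DESeq2 between lipid-laden MDM and non-laden microglia (184 to 571). Between lipid-laden and non-laden microglia they numbered 180 with DESeq2, 119 with the replicate block, 17 without a filter and 0 to 64 with libraries left out. Signs of the 7 genes changed when libraries were left out, between lipid-laden and non-laden microglia for Nrp1 (-0.29 to 0.058), Wwp1 (-0.30 to 0.068), Apobec1 (-0.033 to 0.27), Arhgap19 (-0.070 to 0.14) and Paox (-0.18 to 0.19), and between non-laden MDM and microglia for Arhgap19 (-0.24 to 0.064) and Hacd4 (-0.020 to 0.17). Every lipid-laden MDM library was above all others for 66 genes with RLE scaling and 63 with total counts, 5 of the 7 among them each time. Leaving out all libraries of number 431 and following the double call were chosen after seeing the data. The cause of these changes was not tested. There were only 3 lipid-laden MDM libraries. Whether their count or the depth limits the precision was not tested.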
